A study of Mus musculus with 8 samples.

Results

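Transcripts of voltage-gated sodium and calcium channel subunits were examined in mouse cerebellum. A gene was taken as a member when its symbol in the count table has the form Scn, a number and a or b, or begins with Cacna, Cacnb or Cacng and a number, and when at least 4 of the 8 libraries held 10 or more counts of it. Of 24060 rows in the table, 39 carried such a symbol and 33 of these met the count minimum, 10 of them sodium and 23 of them calcium channel subunits. All 33 were among the 15186 genes that entered the test. The choice used no difference between the groups. The 6 rows left out included Cacna1f, Cacng1, Cacng6, Scn4a and Scn10a, best known from retina, skeletal muscle and sensory neurons. Just inside the minimum, Scn9a had 5 to 28 counts a library and reached 10 in 4 libraries, and Scn11a had 11 to 28. Just outside, Cacng1 had 0 to 10 counts and Cacna1f 2 to 9. Scn2a1, which the annotation calls Scn2a, is a brain sodium channel whose symbol ends in a digit. It is therefore not a member, and its values are given apart.

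Bulk RNA of whole cerebellum was sequenced from 4 bigenic mice (CalExflox; Aldh1l1-Cre/ERT2) and 4 control mice (CalExflox without Cre), 1 library per mouse. CalExflox encodes a plasma membrane calcium pump that is expressed after Cre recombination, and Aldh1l1-Cre/ERT2 is a tamoxifen-dependent Cre made in astrocytes, which in cerebellum include the Bergmann glia. Every mouse of both groups was injected once with tamoxifen (75 mg/kg in corn oil, 25 mg/ml) and was dissected 5 days afterwards. Only the bigenic mice carry Cre, so pump and Cre cannot be told apart, and neither sex nor age is stated.

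Voltage-gated sodium channels consist of a large alpha subunit, which forms the pore and the voltage sensor, and of small beta subunits with a single membrane span, which modify gating, surface expression and cell adhesion. Voltage-gated calcium channels have an alpha1 pore subunit of the Cav1 (L-type), Cav2 (P/Q-, N- and R-type) or Cav3 (T-type) class. In Cav1 and Cav2 channels it is joined by a cytoplasmic beta subunit and an extracellular alpha2delta subunit. Most gamma subunits in brain act as auxiliary subunits of AMPA-type glutamate receptors. In cerebellum these channels are known for the pacemaking and bursts of Purkinje cells and for transmitter release from parallel fibres. Mouse mutants of Cacna1a (tottering), Cacnb4 (lethargic), Cacna2d2 (ducky) and Cacng2 (stargazer) are ataxic.

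Libraries held 35208460 to 38293012 counts, and log2 values of replicates correlated across genes at 0.985 to 0.994. Libraries within the control group stood apart in transcripts of neighbouring tissue. Summed choroid plexus markers reached 49.0 to 56.0 CPM in bigenic libraries, against 362, 2555, 3198 and 46.6 CPM in control libraries 1 to 4, where CPM are counts per 1000000 of the scaled library size. Control library 4 had 110.4 CPM of Slc17a6, a glutamate transporter gene of brainstem and deep nuclear neurons, whereas bigenic libraries had 11.8 to 21.8 CPM and the other control libraries 10.2 to 17.7 CPM. Summed markers overlapped between the groups for Purkinje cells (14069 to 15869 CPM in bigenic and 12561 to 14687 CPM in control libraries), granule cells, and astrocytes with Bergmann glia. These sums hide changes in single markers. Astrocyte markers included 4 called higher and 3 lower of 10, from -2.36 (Fabp7) to 0.97 (Gdf10) on the log2 scale. Granule cell markers included 1 higher (Cbln3, 0.39) and 2 lower (Gabra6, -0.55, and Neurod1, -0.33) of 9. Purkinje markers included 1 higher and 0 lower of 10. All 10 listed markers of each of Purkinje cells and astrocytes were detected. Markers of molecular layer and Golgi interneurons summed to 2157 to 2309.5 CPM in bigenic and 1922 to 2003 CPM in control libraries, with no overlap. Of these 12 markers 3 were called higher (Pvalb, Lypd6 and Lgi2) and 0 lower, and Pvalb, which Purkinje cells express too, made up 1054 to 1174.5 CPM of the sum in bigenic and 879 to 953 CPM in control libraries. Microglia markers summed to 133 to 160.2 CPM in bigenic and 173 to 208 CPM in control libraries, also without overlap, with 4 of 9 called lower. In bulk tissue, fewer cells of a type and less RNA per cell cannot be told apart. The part of these differences in the channel results was not tested. Values without control libraries 2 and 3, or without 1 library, are given with the genes or at the end. Leaving out control libraries 2 and 3 keeps control library 1, at 362 CPM of choroid plexus markers, and control library 4, rich in Slc17a6.

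In bigenic cerebellum 6 of the 33 subunit genes rose and 5 fell at an adjusted p under 0.05 (edgeR's quasi-likelihood test, Benjamini-Hochberg over 15186 genes). The changes were unequal in size: Scn2b, the beta2 subunit of sodium channels, was 2.39-fold lower, whereas the 6 genes that rose did so by 1.20-fold to 1.49-fold. Besides Scn2b, Scn3b was 2.63-fold lower, with 1 control library far above the rest. The others that fell were 1.18-fold to 1.36-fold lower, much like the rises in size. The genes that rose were the calcium channel pores Cacna1a, Cacna1c, Cacna1d and Cacna1i and the gamma subunits Cacng2 and Cacng7. Those that fell were the sodium channel subunits Scn2b and Scn3b and the calcium channel auxiliary subunits Cacna2d3, Cacnb4 and Cacng5.

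The share of members called, 33.3%, was below that of all genes tested, since 44.3% of genes were called in this comparison (21.4% higher and 22.9% lower). Members that rose made up 18.2% of the list and those that fell 15.2%. In 11 members, 33.3%, the values of the 4 bigenic libraries did not overlap those of the 4 controls, against 40.7% of all genes. A further criterion of more than 1.5-fold left 2 members, Scn2b and Scn3b, both lower, whereas 19.5% of all genes met both. The bigenic libraries lay above all controls in 6 members (19.4% of all genes) and below them in 5 (21.4% of all genes). The median log2 fold change of the members was 0.02, and that of all genes was -0.00. As a list, the channel subunits were not called more often than genes at large, and the results that follow concern single subunits.

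**Figure D1:**
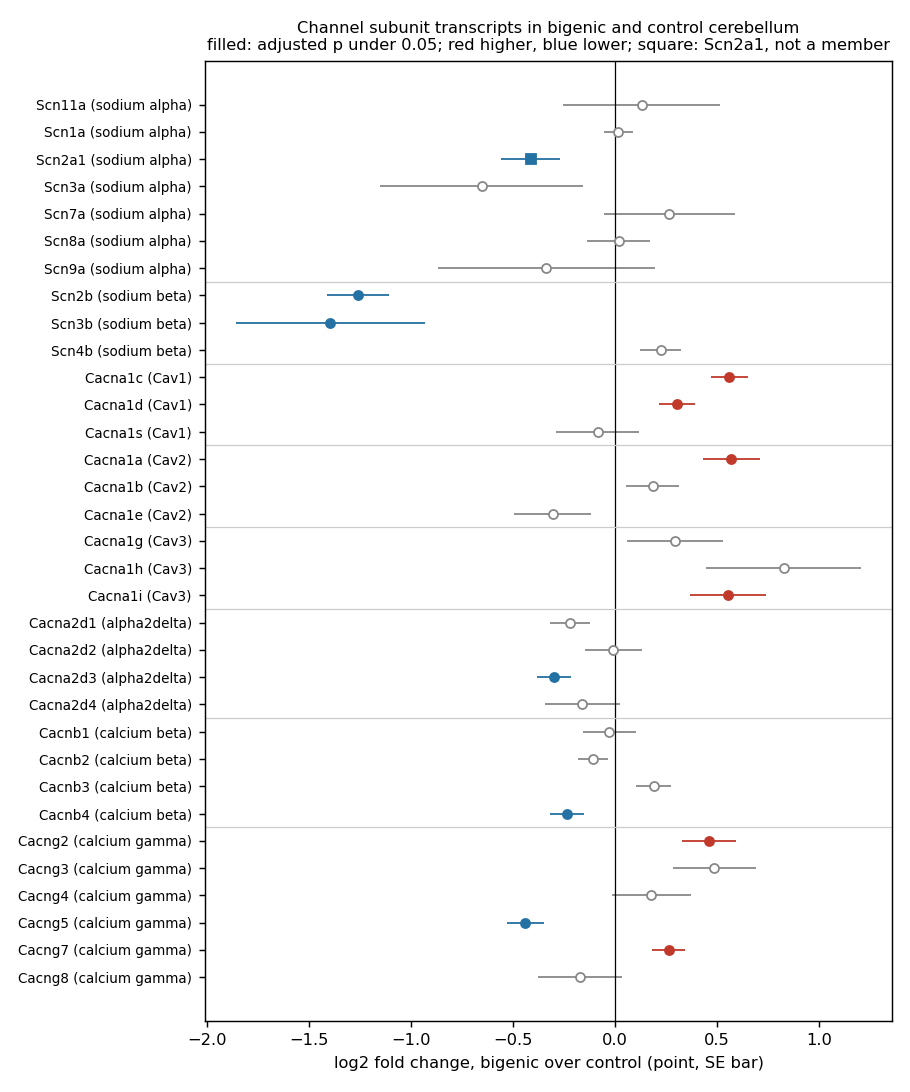
Log2 fold change (bigenic over control) of the subunit genes described here and, as a square, of Scn2a1, grouped by subfamily, with the standard error as a bar. Filled points passed an adjusted p of 0.05, red for higher and blue for lower in bigenic libraries. Scn2b and Scn3b lie farthest to the left, and no sodium channel subunit is filled on the right.

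Among sodium channel alpha subunits, 0 of the 6 members passed the test, with 0 at an unadjusted p under 0.05, and 0 were called by DESeq2. Scn1a, the alpha subunit best known from fast-spiking neurons and from Dravet syndrome in humans, had the highest level per length of these members. It stood at 473, 500.4, 453 and 492 CPM in bigenic libraries and at 437, 461, 493 and 504 CPM in control libraries. The ranges nearly coincide. Its log2 fold change was 0.02 with a 95% interval of -0.14 to 0.17. Scn8a, the alpha subunit tied to resurgent current in Purkinje cells, averaged 188 ± 51.1 CPM in bigenic cerebella and 185 ± 16.2 CPM in controls (SD, n = 4 each). Its interval was wider, from -0.32 to 0.35. The sign of both estimates changed with the scaling of the libraries, so neither has a direction.

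The other alpha subunits were scarce, each below 5 CPM on average. Scn3a, the alpha subunit of embryonic brain, had 2.91, 2.76, 3.08 and 3.20 CPM in bigenic libraries and 2.44, 2.79, 2.08 and 11.4 CPM in control libraries. Control library 4 alone sets its mean in the controls, and it was also the library rich in Slc17a6. With all libraries the log2 difference was -0.65, and without control library 4 it was 0.29, neither past the threshold. Scn7a, a sodium-sensing relative found in glia, averaged 1.78 ± 0.585 CPM in bigenic cerebella and 1.47 ± 0.597 CPM in controls. Scn9a and Scn11a, which are best known from sensory neurons, averaged under 1 CPM in both groups.

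Scn2a1, which is not a member, fell. It had 652, 739, 424 and 542 CPM in bigenic libraries and 734, 771, 885 and 747 CPM in control libraries. Bigenic library 2 lies just above the lowest control, and bigenic library 3 is the lowest. The gene, which encodes the alpha subunit of unmyelinated axons such as parallel fibres, fell by 0.41 on the log2 scale with an SE of 0.14 (adjusted p = 0.037). The call was lost without bigenic library 4, control library 2 or control library 3 (adjusted p = 0.086, 0.069 and 0.098). It was also lost without control libraries 2 and 3 together (-0.33, adjusted p = 0.21) and held in 13 of 20 alternatives.

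Of the 4 sodium channel beta subunits 2 fell, and Scn2b had the smallest p of all 33 members. The gene lies on chromosome 9 (45117782 to 45130070, plus strand, GRCm38). Its product is linked to the alpha subunit by a disulfide bond, like that of Scn4b. Scn2b stood at 327, 419, 226 and 281 CPM in bigenic libraries, against 763, 765, 782 and 691 CPM in control libraries. The highest bigenic value is far below the lowest control, and the bigenic libraries differ more among themselves than the controls do. The means were 313 ± 81.7 CPM in bigenic cerebella and 750.4 ± 40.2 CPM in controls (SD, n = 4 each). The log2 fold change was -1.26 with an SE of 0.15 and a 95% interval of -1.59 to -0.93 (adjusted p = 0.00012). Scn2b passed under each of the 20 alternatives run, at -1.43 to -1.14. Without control libraries 2 and 3, which held most of the choroid plexus transcripts, it was -1.22 (adjusted p = 0.0040).

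Because Scn2b carried the clearest change, the stretch before its start is shown. It was taken from the RefSeq promoter table (GRCm38.p6), ending at the first base annotated as exon (chr9:45117626-45117781, plus strand, 156 bases, 35.3% G and C). No letter is in capitals because none of the motifs searched occurs in it.
Scn2b: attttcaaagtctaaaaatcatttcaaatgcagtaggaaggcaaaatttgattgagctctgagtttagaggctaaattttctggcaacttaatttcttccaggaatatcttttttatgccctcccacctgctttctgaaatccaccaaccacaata

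Scn4b starts only 8.32 kb downstream of the end of Scn2b on the same strand, and the neighbours did not share a call. Scn4b, whose product is linked to resurgent sodium current, averaged 85.2 ± 11.3 CPM in bigenic cerebella and 72.9 ± 6.69 CPM in controls (SD, n = 4 each). Its log2 fold change of 0.22 missed the threshold (adjusted p = 0.093), and it passed without bigenic library 3 (0.28, adjusted p = 0.041).

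Scn3b, the beta3 subunit, was scarce, and it fell. It had 1.20, 1.46, 1.68 and 1.95 CPM in bigenic libraries and 2.12, 2.69, 2.27 and 9.41 CPM in control libraries. All bigenic values are below all controls, but control library 4 is far above the rest. On the log2 scale the fold change was -1.40 with an SE of 0.46 (adjusted p = 0.031), and -0.59 without control library 4 (adjusted p = 0.047). Without bigenic library 1, 2 or 3 the call was lost (adjusted p = 0.085, 0.078 and 0.080). Markers of brainstem and midbrain summed to 125 CPM in control library 4, against 34.9 to 41.2 CPM in bigenic and 23.1 to 35.9 CPM in the other control libraries. Slc17a6 alone made up 110.4 CPM of that sum. The other tested markers of the list, Th and Tph2, were at 13.0 and 1.27 CPM there, within the range of the remaining libraries. Tac1, from a list of peripheral sensory neuron markers, was also high in control library 4, at 9.44 CPM against 0.256 to 0.958 CPM elsewhere. Calca and Avil, the other tested markers of that list, were at 0.573 and 0.996 CPM there, within the range of the remaining libraries.

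**Figure D2:**
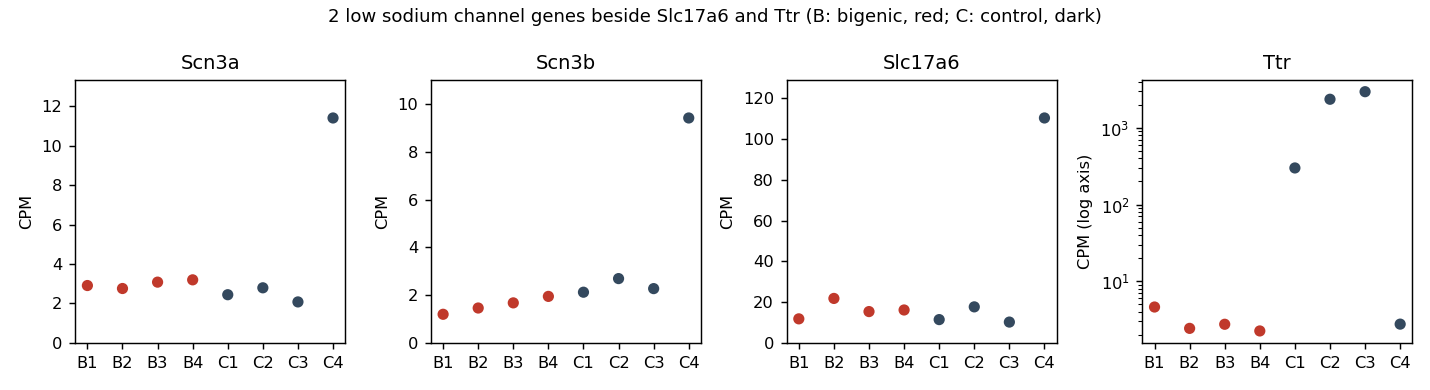
CPM of Scn3a, Scn3b, Slc17a6 and Ttr in each library, with bigenic libraries (B1 to B4) left of control libraries (C1 to C4); the Ttr axis is logarithmic. Scn3a, Scn3b and Slc17a6 are highest in control library 4, at 11.4, 9.41 and 110.4 CPM, while Ttr, a choroid plexus gene, is high in control libraries 1 to 3.

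Scn2b was also lower relative to Scn2a1 by FPKM, which are scaled to gene length. The FPKM ratio of Scn2b to Scn2a1 was 0.956 to 1.08 in bigenic libraries and 1.68 to 1.98 in control libraries, a pair not set in advance. The ratio of summed beta to summed alpha FPKM, Scn2a1 included, overlapped, at 2.80 to 3.40 in bigenic and 2.76 to 3.67 in control libraries. In the summed sodium alpha subunits, Scn2a1 included, Scn2a1 held 47.1 ± 4.30% in bigenic and 54.8 ± 2.01% in control libraries (SD, n = 4 each). Scn1a held 41.1 ± 4.86% in bigenic and 34.8 ± 1.68% in control libraries, with overlap. Shares and ratios were not tested.

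**Figure D3:**
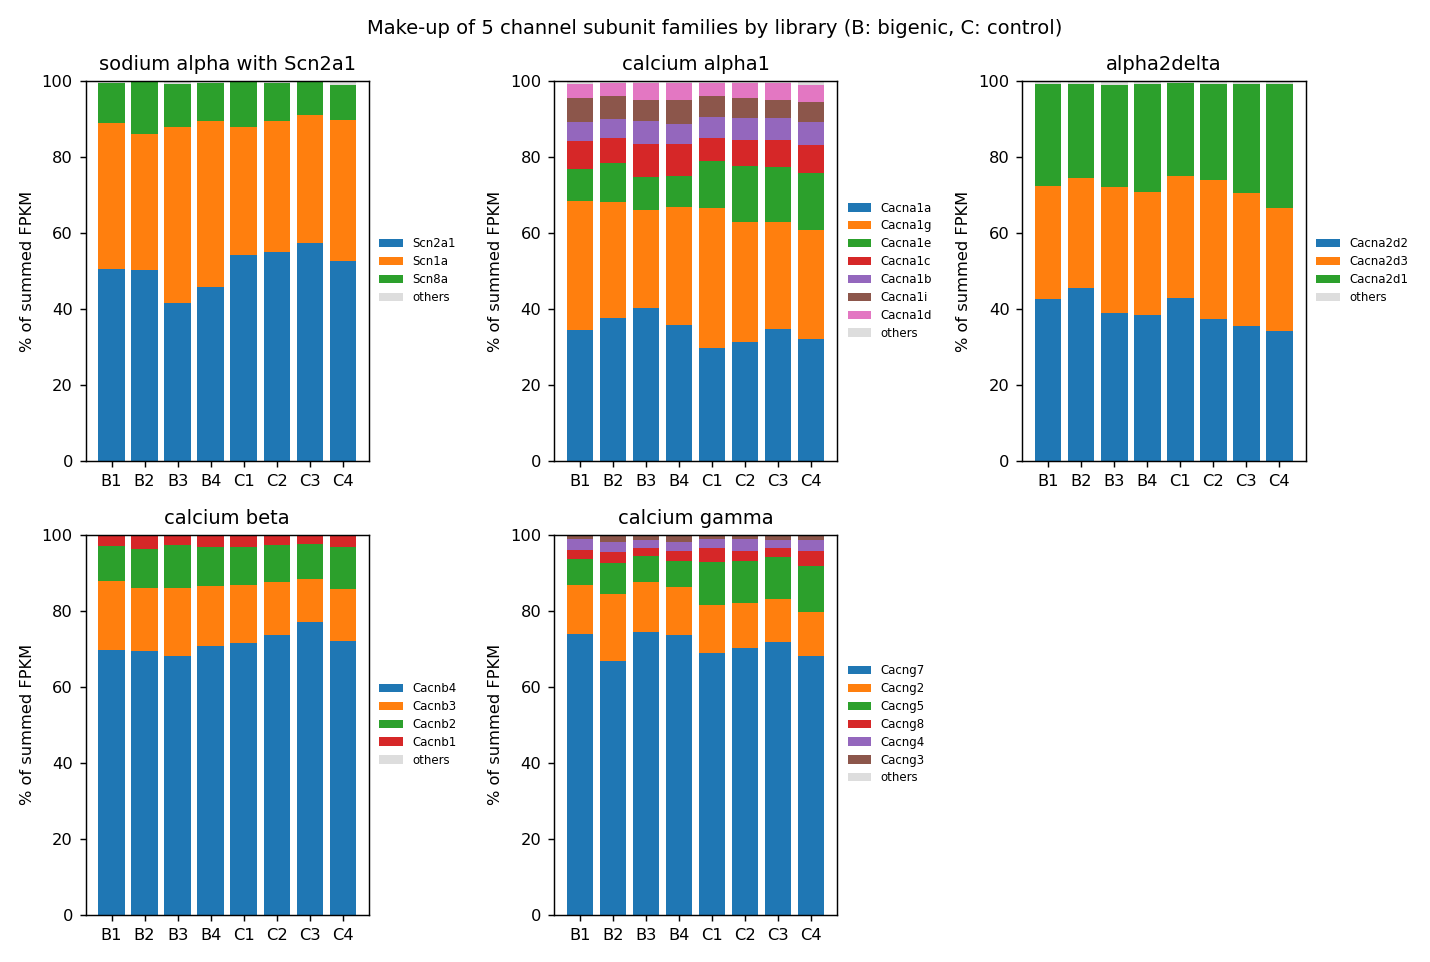
Share of each subunit in the summed FPKM of its family, for 5 families and per library, with bigenic libraries (B1 to B4) left of control libraries (C1 to C4). Scn2a1 holds a smaller share of the sodium alpha sum in every bigenic library (at most 50.6%) than in every control library (at least 52.6%).

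Among the L-type pores, Cacna1c and Cacna1d rose, and Cacna1s did not pass. Cacna1c encodes the main L-type pore of brain and heart and lies on chromosome 6 (118587240 to 119196418, minus strand). It had 102, 119, 94.6 and 95.2 CPM in bigenic libraries and 75.7, 70.9, 63.3 and 68.5 CPM in control libraries. The lowest bigenic value lies well above the highest control. The log2 fold change was 0.56 with an SE of 0.09 (adjusted p = 0.00056), or 1.48-fold. Cacna1c was called under each of the 20 alternatives, at 0.40 to 0.60.

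RefSeq gives Cacna1c 3 windows before alternative starts, and the windows held GC boxes (GGGCGG on either strand) in 1 case. That window is shown because Cacna1c was the member whose rise was called under every alternative run. It lies inside the gene at chr6:119108574-119108745 on the minus strand, is 172 bases long up to the first annotated exon base, and is 83.1% G and C. Capitals mark its 6 GC boxes, most of which overlap each other.
Cacna1c: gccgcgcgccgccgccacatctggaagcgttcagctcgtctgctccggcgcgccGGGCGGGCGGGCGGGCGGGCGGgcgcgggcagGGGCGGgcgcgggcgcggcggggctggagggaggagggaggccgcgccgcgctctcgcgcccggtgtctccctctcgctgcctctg

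Cacna1d, the L-type pore that opens at more negative voltages, had 31.2, 37.5, 30.3 and 30.0 CPM in bigenic libraries and 26.7, 25.5, 25.5 and 26.7 CPM in control libraries. The bigenic libraries are all higher, and bigenic library 2 is set off from the other three. Its log2 fold change was 0.31 with an SE of 0.09 (adjusted p = 0.017), and the call was lost without control library 2 (0.29, adjusted p = 0.055). Exons of Cacna1d share 4.67% of their length with the antisense gene Chdh, which fell by 0.78 on the log2 scale (adjusted p = 0.0018). Because the strand setting of the counting is not given, reads in the shared stretch cannot be assigned. Cacna1s, the L-type pore of skeletal muscle, averaged 1.13 CPM in bigenic cerebella and 1.20 CPM in controls, and 20.0% of its exon length overlaps an antisense gene.

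Of the Cav2 pores, Cacna1a rose. Cacna1a encodes the P/Q-type pore, the main calcium channel of Purkinje cells and of parallel fibre terminals, on chromosome 8 (84388440 to 84640246, plus strand). It stood at 32.3 FPKM in bigenic and 23.0 FPKM in control libraries, and Cacna1g, the other abundant alpha1 gene per length, at 26.7 FPKM in bigenic and 23.1 FPKM in control libraries. It had 253, 353, 232 and 217 CPM in bigenic libraries and 205, 176, 169 and 159.6 CPM in control libraries. The groups do not overlap, and bigenic library 2 is the highest by a wide margin. Cacna1a had a log2 fold change of 0.57 with an SE of 0.14 (adjusted p = 0.0071), or 1.49-fold. It stayed past the threshold when any 1 library was left out, and missed it without control libraries 2 and 3 together (0.53, adjusted p = 0.075).

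The other Cav2 pores did not pass in the main test. Cacna1e, the R-type pore, had 98.4, 153, 78.7 and 77.3 CPM in bigenic libraries and 137, 132, 114 and 121 CPM in control libraries. Bigenic library 2 lies above all controls and the other bigenic libraries lie below them. In the main test its log2 fold change was -0.31 (adjusted p = 0.21), and without bigenic library 2 it was -0.57 (adjusted p = 0.0011). With all libraries it passed with an offset for gene length (-0.41, adjusted p = 0.015) and with the replicate number as a block (-0.36, adjusted p = 0.049). As a share of summed alpha1 FPKM, Cacna1e held 8.77 ± 0.955% in bigenic and 14.2 ± 1.20% in control libraries, without overlap (SD, n = 4 each, not tested). Cacna1b, the N-type pore, averaged 45.6 ± 7.84 CPM in bigenic cerebella and 40.1 ± 5.95 CPM in controls, with an interval of -0.10 to 0.47 for the log2 fold change.

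All 3 T-type pores had higher mean CPM in bigenic libraries, and Cacna1i passed. Cacna1i had 57.9, 69.7, 38.7 and 47.5 CPM in bigenic libraries and 47.2, 37.4, 28.1 and 32.6 CPM in control libraries. The groups overlap, with bigenic library 3 below control library 1. The log2 fold change was 0.56 with an SE of 0.19 (adjusted p = 0.032), and this call was the least stable of the list, holding in 7 of 20 alternatives. Leaving out bigenic library 1 or 2, or control library 2, 3 or 4, ended it (adjusted p of 0.077, 0.092, 0.064, 0.087 and 0.074).

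Cacna1g, the most abundant T-type pore per length and known from Purkinje cells, had 258, 298, 154 and 194 CPM in bigenic libraries and 263, 184, 142 and 148 CPM in control libraries. The range within each group is wider than the gap between the means. Its log2 fold change of 0.30 had an interval of -0.23 to 0.82. Cacna1h had 4.11, 3.35, 1.95 and 2.53 CPM in bigenic libraries and 1.42, 1.33, 0.748 and 3.19 CPM in control libraries. Control library 4 is again the highest of its group. Over all libraries its log2 fold change was 0.83 (adjusted p = 0.097), and without control library 4 it was 1.35 (adjusted p = 0.0059). With Ttr as a covariate it was -0.03, a setting that leans on control library 4, the only control with Ttr at the bigenic level.

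Of the auxiliary calcium channel subunits, alpha2delta and beta subunits included 2 genes that fell, 1 in each family, and none that rose. Alpha2delta subunits carry channels to the surface, and those encoded by Cacna2d1 and Cacna2d2 bind gabapentin. Cacna2d3 had 49.1, 58.5, 48.5 and 50.0 CPM in bigenic libraries and 60.0, 68.1, 65.0 and 60.1 CPM in control libraries. All bigenic libraries are lower, and bigenic library 2 comes closest to the controls. Cacna2d3 had a log2 fold change of -0.30 with an SE of 0.08 (adjusted p = 0.013), and the call was lost without control library 2 (-0.26, adjusted p = 0.052). Cacna2d2, the gene mutated in ducky mice and the highest of the family per length, had 106, 137, 84.9 and 88.9 CPM in bigenic libraries and 121, 105, 98.4 and 94.7 CPM in control libraries. These ranges overlap almost wholly, and the interval of its log2 fold change was -0.32 to 0.30. Cacna2d1 averaged 89.7 ± 8.79 CPM in bigenic cerebella and 104 ± 12.8 CPM in controls (adjusted p = 0.093). It passed in 6 of 20 alternatives, among them without bigenic library 2 (-0.28, adjusted p = 0.031) and with library size alone (-0.31, adjusted p = 0.033). Cacna2d4 averaged 2.02 CPM in bigenic cerebella and 2.26 CPM in controls.

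Cytoplasmic beta subunits bind the alpha1 subunit and aid its passage to the membrane. Cacnb4, mutated in lethargic mice, made up most of the beta pool, with 61.5 FPKM in bigenic and 76.6 FPKM in control libraries. It had 574, 577, 489 and 557 CPM in bigenic libraries and 611, 637, 724 and 614 CPM in control libraries. All bigenic values are lower, though the gap between 577 and 611 CPM is narrow. The log2 fold change was -0.23 with an SE of 0.08 (adjusted p = 0.036). Without bigenic library 3 or 4, or control library 2 or 3, the call was lost (adjusted p = 0.058, 0.063, 0.071 and 0.11). Exons of Cacnb4 overlap those of the antisense gene A430018G15Rik over 16.0% of their length.

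Cacnb4 held 69.5 ± 1.11% of summed beta subunit FPKM in bigenic and 73.6 ± 2.45% in control libraries. Cacnb3 held 17.1 ± 1.01% in bigenic and 13.6 ± 1.67% in control libraries, and neither share overlapped (SD, n = 4 each). Cacnb3 itself averaged 47.0 ± 3.46 CPM in bigenic cerebella and 41.2 ± 3.59 CPM in controls (adjusted p = 0.097), and passed without control library 1 (0.24, adjusted p = 0.046). Cacnb1 and Cacnb2 did not pass, with intervals of -0.31 to 0.26 and -0.27 to 0.05. Set beside the pore it serves, the FPKM ratio of Cacna1a to Cacnb4 was 0.427 to 0.669 in bigenic libraries and 0.256 to 0.367 in control libraries, a pair chosen after its values were seen.

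**Figure D4:**
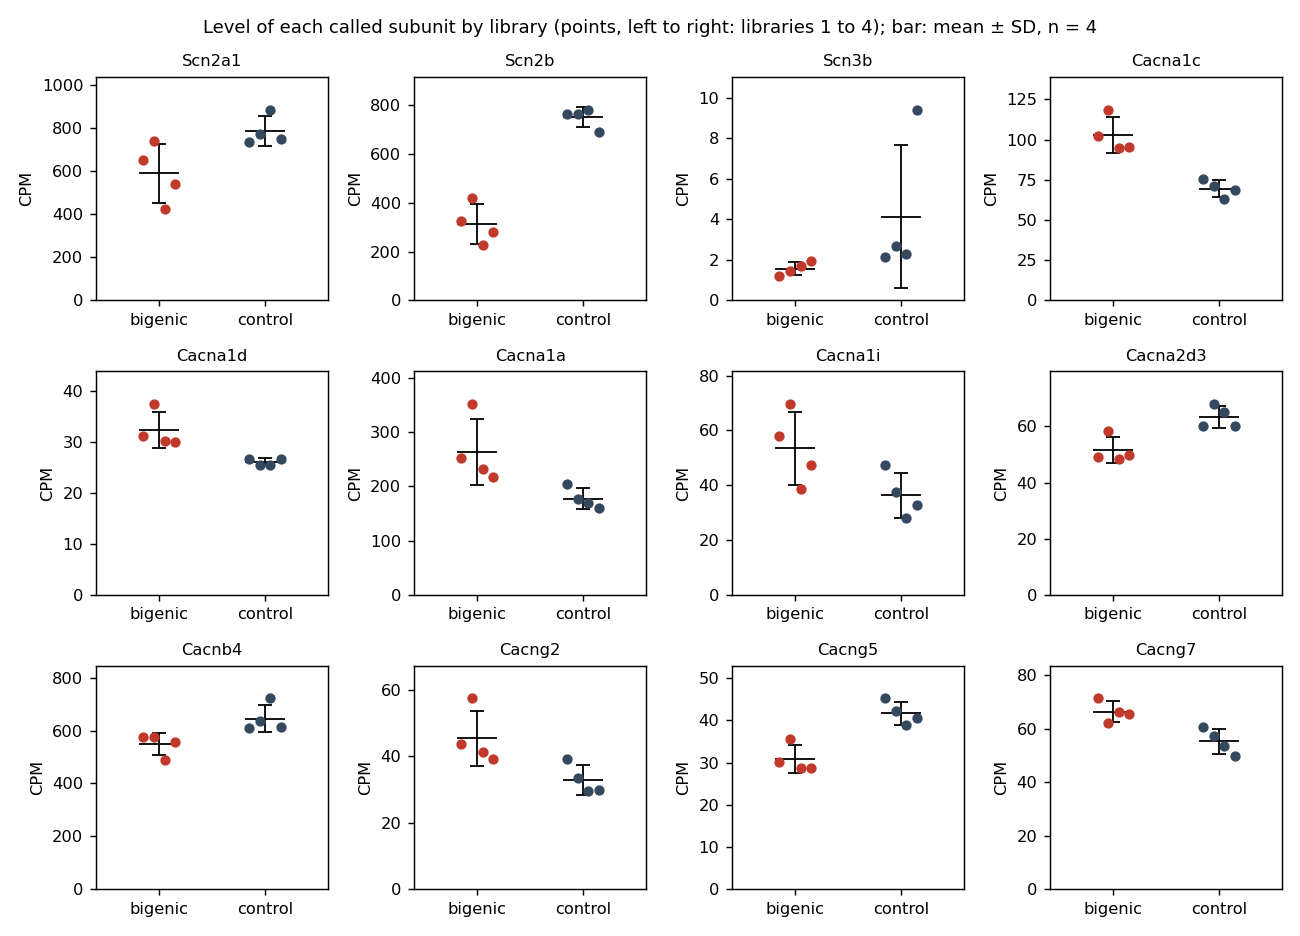
CPM of the 11 subunit genes that passed the test, and of Scn2a1, in each library, with bigenic libraries in red left of control libraries in dark and the mean ± SD as bars (n = 4 each); every axis starts at 0. Scn2b shows the widest gap between groups, Cacna1i overlaps, and the control mean of Scn3b is set by 1 library at 9.41 CPM.

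Gamma subunits moved in both directions. Cacng2, also called stargazin, which brings AMPA receptors to the granule cell surface, lies on chromosome 15 (77991748 to 78120028, minus strand). It had 43.8, 57.6, 41.2 and 39.3 CPM in bigenic libraries and 39.2, 33.5, 29.5 and 29.8 CPM in control libraries. The lowest bigenic and the highest control value nearly touch. This amounted to a log2 fold change of 0.46 with an SE of 0.13 (adjusted p = 0.014), and without control libraries 2 and 3 it was 0.39 (adjusted p = 0.14). An antisense gene overlaps 5.86% of its exon length.

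Cacng7, a gamma subunit that also acts on AMPA receptors, was the highest of the family per length. It had 71.5, 62.2, 66.4 and 65.6 CPM in bigenic libraries and 60.6, 57.2, 53.6 and 49.8 CPM in control libraries. The bigenic values are higher throughout by a narrow margin. The log2 fold change was 0.26 with an SE of 0.08 (adjusted p = 0.020), and it held in 10 of 20 alternatives. The call was lost without bigenic library 1 or control library 3 or 4 (adjusted p = 0.062, 0.058 and 0.068).

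Cacng5 fell. It lies on chromosome 11 (107874605 to 107915055, minus strand), and its product is described in Bergmann glia, where it modifies AMPA receptors. It had 30.2, 35.6, 28.6 and 28.7 CPM in bigenic libraries and 45.3, 42.2, 38.8 and 40.6 CPM in control libraries. The groups are clearly apart, with 35.6 CPM the highest bigenic and 38.8 CPM the lowest control value. Cacng5 had a log2 fold change of -0.44 with an SE of 0.09 (adjusted p = 0.0029), or 1.36-fold lower. It held whichever library was left out and without control libraries 2 and 3 (-0.48, adjusted p = 0.026), and missed with Ttr as a covariate (-0.45, adjusted p = 0.056). The share of Cacng5 in summed gamma FPKM was 7.21 ± 0.695% in bigenic and 11.4 ± 0.404% in control libraries. The FPKM ratio of Cacng2 to Cacng5 was 1.82 to 2.15 in bigenic libraries and 0.975 to 1.15 in control libraries, a pair also chosen after its values were seen.

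The window before the outer start of Cacng5 is shown as that of the member that fell with a stable call besides Scn2b (RefSeq, GRCm38.p6, chr11:107915056-107915305, minus strand, 250 bases, 62.0% G and C). Capitals mark its 2 GC boxes, here read as CCGCCC. The window of an inner start held none.
Cacng5: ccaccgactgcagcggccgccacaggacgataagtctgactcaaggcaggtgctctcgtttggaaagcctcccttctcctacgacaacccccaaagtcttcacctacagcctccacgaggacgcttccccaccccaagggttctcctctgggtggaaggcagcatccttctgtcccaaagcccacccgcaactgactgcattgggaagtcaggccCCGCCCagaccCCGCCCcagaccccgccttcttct

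The remaining gamma subunits were scarce. Cacng3 had 1.85 to 2.89 CPM in bigenic libraries and 1.54 to 1.82 CPM in control libraries, which do not overlap, yet it missed the threshold (log2 fold change 0.49, adjusted p = 0.070). It passed without bigenic library 1 or 3 (adjusted p = 0.045 in each). Cacng4 and Cacng8 averaged 2.86 and 3.76 CPM in bigenic and 2.52 and 4.23 CPM in control libraries and did not pass. Neighbouring genes of the family did not share calls. Cacng7 rose and Cacng8, 22.5 kb away, did not pass, and Cacng5 fell while Cacng4, 80.0 kb away, did not pass. The intervals of Cacng8 and Cacng4 were wide, at -0.62 to 0.28 and -0.25 to 0.61. That of Cacng8 includes the Cacng7 estimate of 0.26, so these neighbours are not shown to differ.

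RefSeq windows of 250 bases before the start were found for 25 of the 33 members, in 35 windows, and Scn2a adds another 2. Of the 37 windows, 14 held a GC box, each in a different gene, against 32.7% of 32851 promoters. These 14 genes included 3 that rose (Cacna1c, Cacna1d, Cacng7), 3 that fell (Cacna2d3, Cacnb4, Cacng5) and 8 that did not pass. TATAAA occurred in 2 windows (12.4% of promoters). No window held the E-box CACGTG (6.02% of promoters), TGACGTCA (1.55%), the full glucocorticoid response element (0.0091%) or TTCAGCACC (0.301%), the left part of the RE1 element. All were searched on both strands, and a GC box can overlap another. Such matches describe the letters only.

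Libraries differed among themselves in the channel genes. Bigenic library 2 was the highest of its group in 22 of 33 members, or 66.7%, against 34.5% of all genes. Bigenic library 3 was the lowest in 17 members, or 51.5%, against 33.2% of all genes. Among controls, library 1 was the highest in 17 members (51.5%, against 30.0% of all genes), and library 3 the lowest in 15 (45.5%, against 23.9%). Members also had longer gene models in the FPKM, with a median of 5835 bases against 2910 bases for all genes tested. With an offset for gene length in each library, 6 members rose and 7 fell. For members at a mean of 10 CPM or more, the median coefficient of variation was 12.1% in bigenic and 8.64% in control libraries. Over all genes at that level it was 10.4% in bigenic and 6.69% in control libraries.

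**Figure D5:**
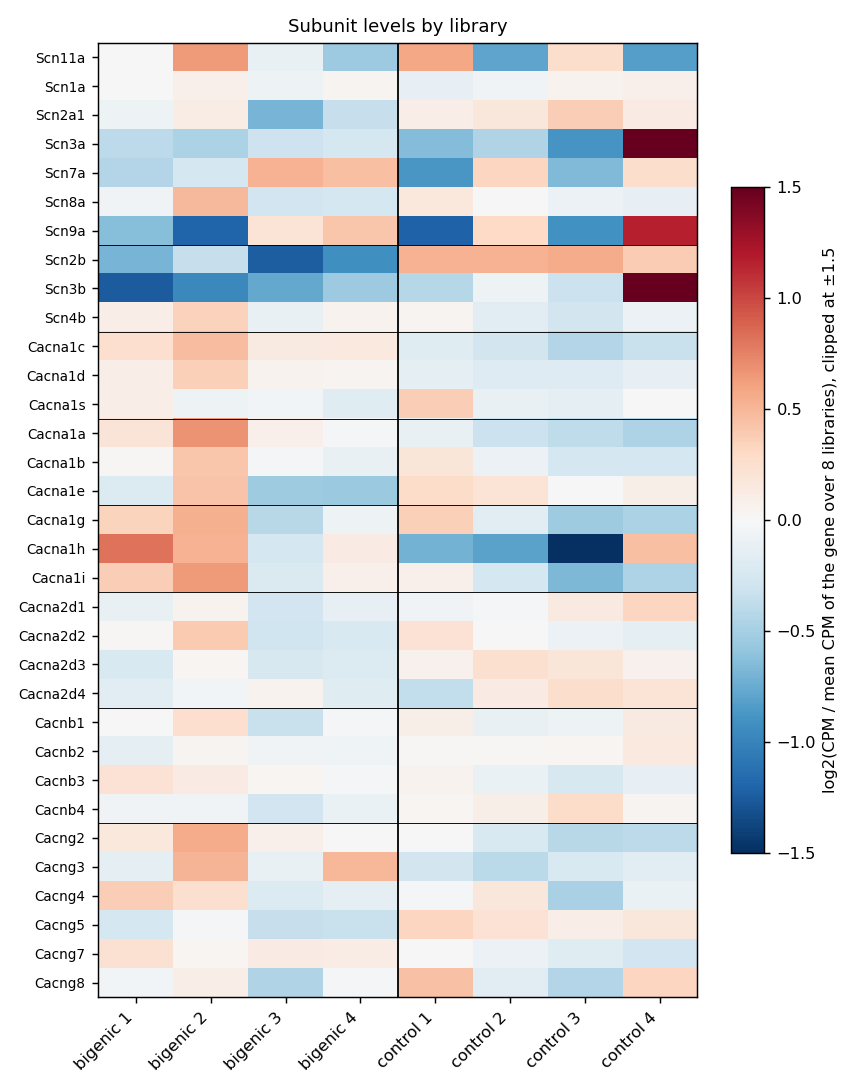
Log2 ratio of each gene's CPM to its mean over the 8 libraries, with bigenic libraries left of the line and control libraries right of it, clipped at 1.5 in either direction. Bigenic library 2 is warm in most rows, Scn2b is blue in all bigenic and red in all control libraries, and Scn3a and Scn3b are darkest in control library 4.

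Genes whose products bind or place these channels were listed as partners. Of 25 listed symbols 23 were tested, and 1 of the other two, Nalf1, is the newer name of the tested Fam155a. Among those tested 4 rose and 4 fell, or 34.8% in all, below the 44.3% of all genes called (21.4% higher and 22.9% lower). Their median log2 fold change was 0.11. Among sodium channel partners, Cntn1, an adhesion molecule, fell, with 838 ± 56.6 CPM in bigenic cerebella and 1014.5 ± 51.4 CPM in controls (SD, n = 4 each; adjusted p = 0.0094). The axon initial segment genes Ank3, Sptbn4 and Nfasc did not pass, nor did the 4 Fgf11 to Fgf14 genes of intracellular sodium channel modulators.

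Among calcium channel partners, Cabp1, a calmodulin relative that binds Cav1 and Cav2 channels, rose, with 97.2 to 101 CPM in bigenic and 62.5 to 75.8 CPM in control libraries (log2 fold change 0.52, adjusted p = 0.00036). Rims2, an active zone scaffold, rose by 0.25 on the log2 scale (adjusted p = 0.044). Rem2 and Rrad, small GTPases known to inhibit calcium channels, fell. Gem, listed beside them, did not pass (log2 fold change -0.10, adjusted p = 0.82), and Rem1 was below the count filter. Rem2 averaged 5.38 ± 1.34 CPM in bigenic cerebella and 10.1 ± 1.00 CPM in controls (log2 fold change -0.90, adjusted p = 0.0014). Rrad averaged 0.637 ± 0.131 CPM in bigenic cerebella and 1.54 ± 0.398 CPM in controls (log2 fold change -1.27, adjusted p = 0.0025). In the complex of the sodium leak channel, the pore gene Nalcn fell by 0.23 (adjusted p = 0.026) and the subunit gene Fam155a rose by 0.35 (adjusted p = 0.0026), both on the log2 scale.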

How the data were processed

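Whole cerebellum of 4 bigenic and 4 control mice was sequenced, and the replicates are separate animals per the labels. The authors deposited raw read counts per gene and FPKM. A check showed that the deposited FPKM are the counts over a fixed gene length and the column total. STAR, HTSeq and mm10 are named in the submitters' processing notes; versions and strand setting are not given in the sources used here. The labels disagree on the library kit (Nugen Ovation or stranded TruSeq).

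Counts were tested with edgeR 4.0.16 in R 4.3.3 (filterByExpr, TMM scaling, robust quasi-likelihood F test), with Benjamini-Hochberg adjustment over 15186 genes and a threshold of 0.05. Intervals are 95% and cover 1 gene at a time. CPM use the TMM-scaled library size. Alternatives used DESeq2 1.42.0, limma 3.58.1 on log2(deposited FPKM + 1) or + 0.1, other scalings and filters, left-out libraries, Ttr as a covariate and a length offset. On bigenic and control counts simulated with 200 changed genes (15074 genes in the fit), 47% of 1.5-fold and 81% of 2-fold changes were called, and 6.57% of calls were unchanged genes. The simulation changed far fewer genes than the 44.3% called here, so its rates need not hold for these data. Annotation was GENCODE M21 (GRCm38). Values in every library are given for members called and for the highest FPKM of each subfamily. For other genes, values of single libraries were added after they were seen. Members, partners and marker lists were chosen with earlier results of these data known. Some genes of the lists are not reported here. Striatum was not analysed here.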

Additional observations from a re-analysis of the deposited data

Results flagged for a closer look

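In a group of 4 libraries, a value was marked when its gap to the nearest other library took up more of the group's range than Dixon's 95% critical value. Of 68 groups examined (34 genes in each of 2 groups), 5 were marked, and chance marks about 1 in 20. Bigenic library 2 stood above the rest of its group for Cacna1d, at 37.5 CPM with the others at 30.0 to 31.2 CPM. The same library stood above its group for Cacna2d3, at 58.5 CPM with the others at 48.5 to 50.0 CPM. Control library 4 was marked for Scn3a at 11.4 CPM (others 2.08 to 2.79 CPM), for Scn3b at 9.41 CPM (others 2.12 to 2.69 CPM) and for Cacnb2 at 47.5 CPM (others 43.5 to 44.0 CPM). The marker Slc17a6 was at 110.4 CPM in that library, and its part in these values was not tested.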

How the results depend on the processing

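Scn2b and Cacna1c were called in each of the 20 alternatives, Cacng5 in 19, Cacna1a in 18, Cacna2d3 and Cacng2 in 17, Cacnb4 in 14, Cacna1d, Scn3b and Scn2a1 (not a member) in 13, Cacng7 in 10 and Cacna1i in 7. No called member changed sign. Without control libraries 2 and 3, Cacna1d, Cacna1i, Cacna2d3, Cacnb4 and Cacng7 missed (adjusted p = 0.16, 0.21, 0.18, 0.29 and 0.14). Cacna1a and Cacng2 missed there too, as given above, and Scn3b held (adjusted p = 0.018). The number of members that rose, 6 in the main test, came to 3 when scaled by library size alone, to 3 on log2(FPKM + 1), 3 on log2(FPKM + 0.1) and 2 on log2(FPKM + 1) without a filter, 1 without control libraries 2 and 3, and 1 with Ttr as a covariate; it was 4 to 8 when 1 library was left out. The number that fell, 5, was 3 without control libraries 2 and 3, 3 with Ttr and 3 to 6 when 1 library was left out, with 3 both without bigenic library 3 and without control library 2. The causes were not tested. Leaving out control libraries 2 and 3, 1619 genes in all rose and 1775 fell, and with Ttr 1277 rose and 1665 fell, against 3249 and 3485. Of partners, 2 fell without control libraries 2 and 3 and 2 with Ttr, against 4. Ttr also made Scn3a pass at -1.79. Scn2a1 missed with Ttr (adjusted p = 0.33), with the replicate block (0.053) and without a filter (0.054).

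Same-numbered libraries deviated together at correlations of 0.329, 0.0239, 0.166 and 0.0625, not all over 0.1, so the numbers were not taken as pairs. Bigenic libraries 1, 3 and 4, but not 2, correlated best with the control of their own number, a hint from the data and not from the design. With the number as a replicate block, 9 members rose and 6 fell, and 7 partners rose.

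Signs changed in members that did not pass. Cacna1h was -0.026, Cacna2d2 0.059 and Scn7a -0.0063 with Ttr. Scn1a was -0.068 with library size alone, -0.041 with upper-quartile factors, -0.0017 without a filter, -0.066, -0.067 and -0.066 on log2(FPKM + 1), log2(FPKM + 0.1) and log2(FPKM + 1) unfiltered, -0.036 with Ttr and -0.017 with the length offset. In the order of the first 6 of these settings Scn8a was -0.066, -0.038, -0.00051, -0.091, -0.098 and -0.091. It was -0.014 with the replicate block, -0.014 without control libraries 2 and 3 and -0.064 with the length offset. When 1 library was left out, log2 fold changes ran from -0.14 to 0.040 for Cacna1s, -0.17 to 0.072 for Cacna2d2, -0.13 to 0.059 for Cacnb1, -0.13 to 0.43 for Scn11a, -0.021 to 0.046 for Scn1a, -0.90 to 0.29 for Scn3a, -0.19 to 0.098 for Scn8a and -0.60 to 0.26 for Scn9a.

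Scn9a and Scn11a rest on at most 28 counts a library, so changes in them were hardly detectable at this depth.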
